A study of Rattus norvegicus with 3 samples.

Results

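Of 8546 annotated cells in a single-cell RNA library of rat thymocytes, 170 carried the authors' label B+myeloid, a share of 1.99% (95% interval 1.70 to 2.31, exact Clopper-Pearson, for counting error only). The members were all cells with that label, read from the projected label or, where that was empty, from the initial cluster. None of the 170 had a projected label, so all came in through their initial cluster. Both single-cell libraries came from thymi of Lewis rats, an inbred strain, at 8 weeks of age, and no treatment or engineered allele was given. The thymocyte library was released with collagenase D and DNase I, and the stromal library with Liberase TH and DNase I followed by magnetic and flow enrichment of cells without CD45, the surface protein of blood-derived cells. Each library is 1 sample, so every comparison below describes 2 libraries that also differ in digestion and sorting, and no test or p-value is given. A spatial section of the same series was not used here, because none of its 31 bin labels names B or myeloid cells.

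Most cells of a thymus are developing T cells, and the majority of these die within the organ. Macrophages take up the dying thymocytes, with C1q, MERTK and AXL among the proteins that bind or bridge to dead cells. Dendritic cells and B cells, most of them in the medulla, show peptides on MHC class II to the T cells that survive, and plasmacytoid dendritic cells are a source of type I interferon. Neutrophils are made in the bone marrow and fill with granule proteins in a fixed order, with myeloperoxidase and elastase early and gelatinase (Mmp9) and collagenase (Mmp8) late.

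The members were deep for this library. They held 2390426 UMIs (unique molecular identifiers, which count captured RNA molecules), or 3.71% of the 64440495 UMIs of annotated cells, with a median of 11506.5 per cell (528 to 53997) against 3957.5 in the other annotated cells. The median share of mitochondrial UMIs was 2.41% and the highest 27.1%. Doublets were neither called nor taken out. The libraries share 38 barcodes, 1 of them a member.

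**Figure D1:**
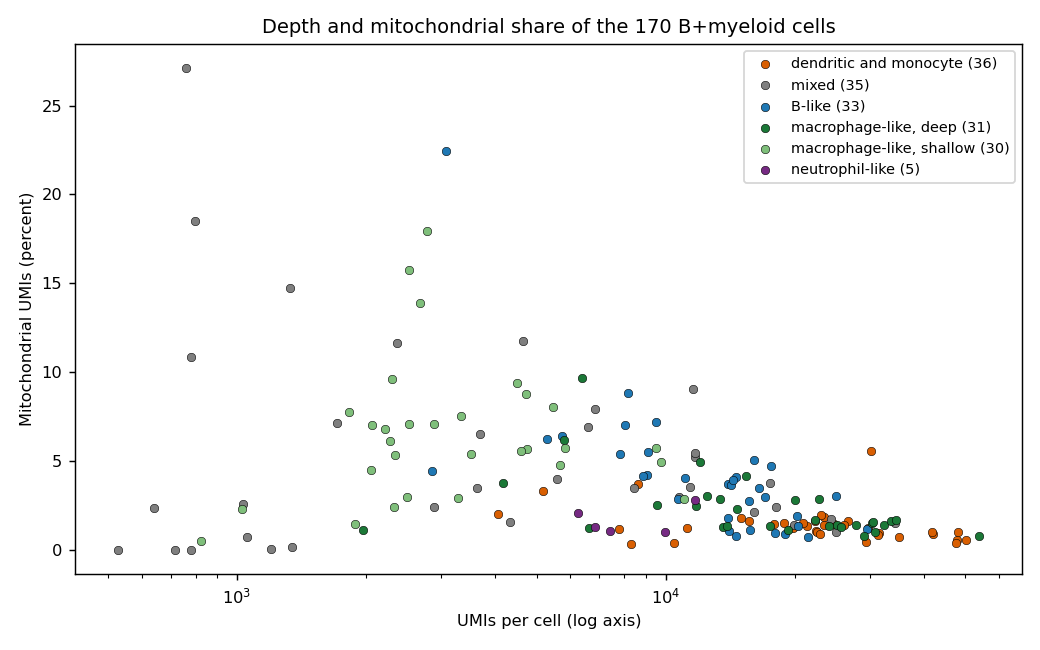
Each point is 1 of the 170 B+myeloid cells, with its UMIs (x axis, log scale) and its percent of mitochondrial UMIs (y axis), coloured by cluster. The shallow macrophage-like cells lie towards the left with a median of 2719 UMIs, the mixed cells spread from 528 to 34370 UMIs and hold the highest mitochondrial share, 27.1%, and the dendritic and monocyte cells lie at the right with a median of 23014.5 UMIs.

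Of the 3 genes given as markers of the label, 2 marked it in these counts and 1 did not. RT1-Da, the alpha chain of the rat MHC class II molecule RT1-D, had 10712 UMIs in the members, and the label with the next most UMIs of RT1-Da was DP, the CD4 and CD8 double-positive thymocytes, with 23. Vcam1, an adhesion receptor, had 721 UMIs in the members and at most 1 in any other label. Cd79a, a signalling chain of the B cell receptor, had 630 UMIs in the members, which were 40.8% of the library's. Among the 8376 other annotated cells, 114 held 3 or more Cd79a UMIs, against 36 members. Those cells were largely mature CD4 and regulatory T cells: 27 of 37 cells labelled Treg had a Cd79a UMI, with 141 UMIs in all, and 53 of 127 labelled Mature CD4-2 had one. DP cells had 3 Cd79a UMIs in 5202 cells. The B cell factor Pax5 did not follow this pattern, with 95.1% of its UMIs in members and no other annotated cell with 3 or more.

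Other lineage genes were held almost wholly by the members. C1qa, C1qb and C1qc, the chains of complement C1q, together had 15561 UMIs in members and 105 in the other annotated cells, where no cell held 3 or more. Igha and Jchain, which code for the IgA heavy chain and the chain that joins its units, had 99.2% of their UMIs in members. Siglech, a receptor of plasmacytoid dendritic cells, had 99.1% of its UMIs in members, and the neutrophil pair S100a8 and S100a9 had 98.4%. The dendritic trio Xcr1, Clec9a and Flt3 stood lower at 83.2%, with 95 UMIs spread over 88 other cells and none with 3 or more.

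The 170 cells were clustered into 6 groups (Ward clustering on 15 principal components of 1000 variable genes), which were named from marker lists. The values in the next paragraphs define the clusters and are given as a description. Between clusters, 7224 genes were compared for a lead of 3-fold or more over the next cluster. The share led was 1.05% for the dendritic and monocyte, 5.02% for the mixed and 1.58% for the B-like cluster. It was 1.54% for the deep and 0.0138% for the shallow macrophage-like cluster. Against the clusters other than the deep one, the shallow cluster's leading genes included C1qa, C1qb and C1qc, which were also high in the deep one. The shallow cluster held 112954 UMIs in all and the deep one 621760. The part of depth in the low share was not tested. Macrophage-like cells were the most numerous, 61 cells or 35.9% of members (28.7 to 43.6), in a deep cluster of 31 (median 19277 UMIs) and a shallow cluster of 30 (median 2719). A dendritic and monocyte cluster held 36 cells, 21.2% (15.3 to 28.1). The B-like cluster held 33 cells, 19.4% (13.8 to 26.2), and a neutrophil-like cluster held 5 cells, 2.94% (0.962 to 6.73). The remaining 35 cells, 20.6%, formed a mixed cluster that was given no name. Both macrophage-like clusters lay entirely in 1 cluster of the authors (their number 11), and the B-like, neutrophil-like and dendritic and monocyte cells lay in another (their number 8), which also held 12 cells labelled Treg and 7 labelled NKT.

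**Figure D2:**
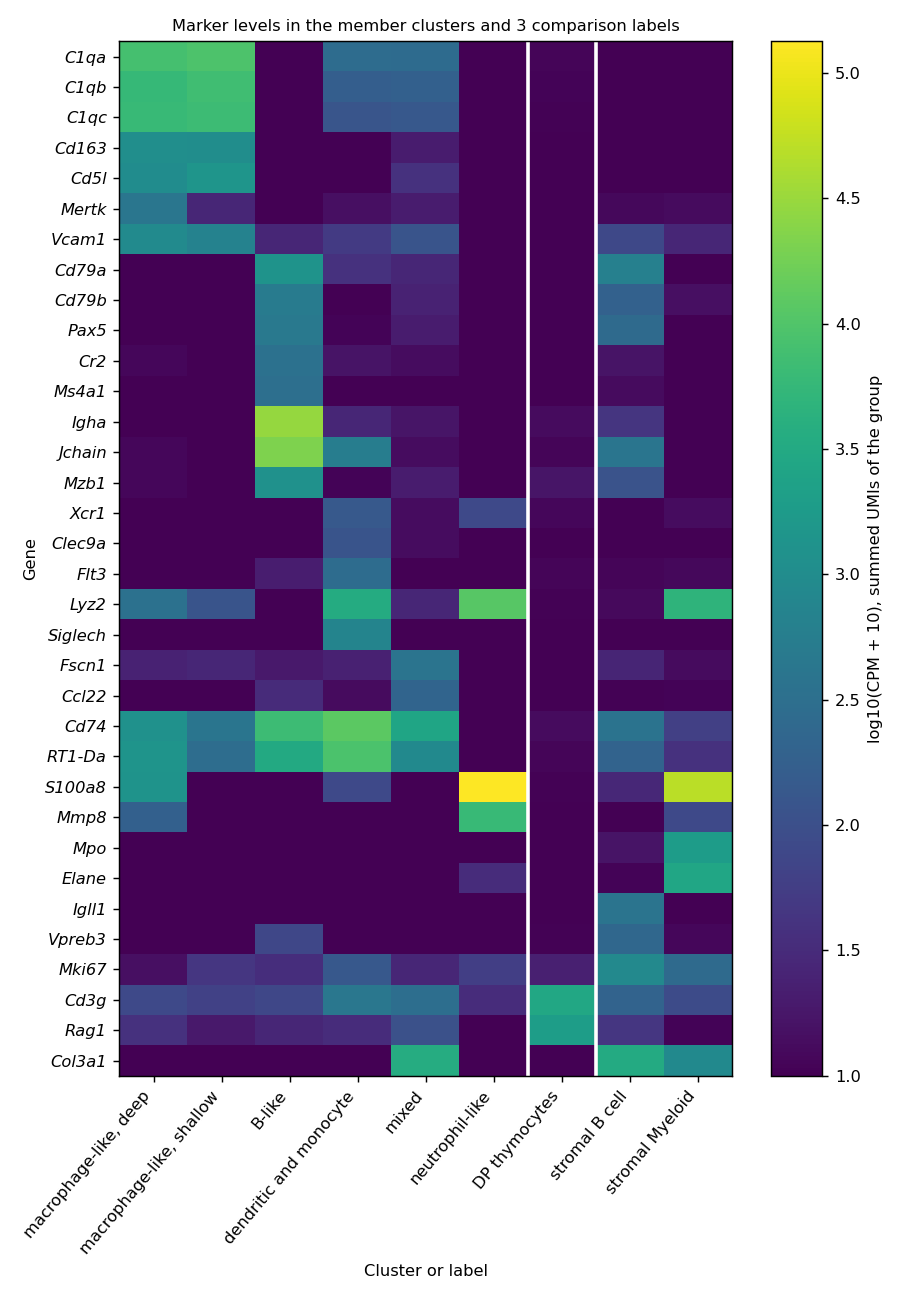
Colour gives log10 of the level plus 10, where the level is the UMIs of a gene per 1000000 UMIs summed over the cells of a column. Rows are chosen genes, and columns are the 6 member clusters, DP thymocytes and the B cell and Myeloid labels of the stromal library. C1qa, C1qb and C1qc are brightest in the macrophage-like columns and at 0 in both stromal columns. Igll1, Mpo and Elane have at most 1 UMI in all members together and are bright in a stromal column.

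Levels below are in CPM (the UMIs of a gene per 1000000 UMIs summed over the cells of a group), with 95% exact Poisson intervals for counting error. The macrophage-like cells carried C1qa at 7968 CPM (7747 to 8193) in the deep and 9243 CPM (8690 to 9821) in the shallow cluster, and at 0 UMIs in the B-like cluster. DP cells had C1qa at 1.59 CPM, with a UMI in 0.577% of cells. With each cell thinned to 1000 UMIs, C1qa was seen in 96.8% of deep and 100% of shallow macrophage-like cells and in 0.232% of DP cells. Cell by cell, the 3 C1q genes summed to between 79.7 and 383 UMIs per 10000 in the shallow cluster and between 1.30 and 300.2 in the deep one. So the depth gap between the clusters did not come with a gap in C1q.

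Other macrophage genes followed the same pair of clusters. Cd163, the haemoglobin scavenger receptor, stood at 1070 CPM (990 to 1154) in the deep and 1054 CPM (873 to 1261) in the shallow cluster, with 0 UMIs in the B-like and the dendritic and monocyte clusters. Cd5l, a secreted macrophage protein, had 632 and 160 UMIs in the deep and shallow clusters and none in B-like or dendritic and monocyte cells. Pf4, a chemokine best known from platelets, was at 968 and 965 CPM in the deep and shallow clusters and at 0 UMIs in the B-like cluster. The iron exporter Slc40a1 was at 761 CPM (694 to 832) and 487 CPM (367 to 634), and at 0 UMIs in both the B-like and the dendritic and monocyte cells.

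A smaller set parted the deep from the shallow macrophage-like cells. Mertk, a receptor that binds dead cells through GAS6 and PROS1, had 251 UMIs in 29 of 31 deep cells, 404 CPM (355 to 457), and 2 UMIs in the 30 shallow cells, 17.7 CPM (2.14 to 64.0). Timd4, a phosphatidylserine receptor, had 52 UMIs in 18 deep cells and 3 UMIs in 2 shallow cells. Gas6 had 68 and 3 UMIs. Timd4 and Gas6 were near the limit of what the shallow cluster could show, where 3 UMIs equal 26.6 CPM. The shallow count of Mertk was below that limit, but its CPM intervals in the deep and shallow clusters did not overlap. With cells thinned to equal depth, Mertk was seen in 7 of 31 deep cells, 22.6% (9.59 to 41.1). It was seen in 0 of 29 shallow cells (0 to 11.9%), so the thinned intervals overlapped. Axl, the sister receptor of Mertk, was closer, at 639 CPM (577 to 705) and 443 CPM (329 to 584). The median mitochondrial share was 1.56% in the deep and 5.73% in the shallow cluster, and its part in these differences was not tested.

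Uptake and lysosomal genes were high in both macrophage-like clusters. The efferocytosis list, 20 genes for binding and digesting dead cells, summed to 9856 CPM (9611 to 10106) in the deep cluster, 7640 (7139 to 8168) in the shallow one, 479 in the dendritic and monocyte cluster and 244 in the B-like cluster. DP cells stood at 791 CPM for the same list. Lgmn, a lysosomal protease, was at 1745 CPM (1643 to 1852) and 1496 CPM (1279 to 1740) in the deep and shallow cells, against 14.0 in DP cells. Abca1, which exports cholesterol, was at 1970 CPM (1861 to 2084) and 779 CPM (625 to 960). Nr1h3, the sterol-sensing factor that drives Abca1, was at 177 and 195 CPM. Pros1, one of the bridging ligands, had 6 UMIs in deep and 0 in shallow cells, and Stab1 and Tyro3 had 6 or fewer in each.

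MHC class II set the dendritic and monocyte and the B-like cells apart from most macrophage-like ones. The class II list of 11 genes summed to 45993 CPM in the dendritic and monocyte cluster, 18624 in the B-like cluster, 7908 and 3851 in the deep and shallow macrophage-like clusters, 142 in the neutrophil-like cells and 43.7 in DP cells. Cd74, the invariant chain that guards the class II groove, had a UMI in 33 of 33 B-like cells, 17 of 31 deep and 8 of 30 shallow macrophage-like cells. In the deep cluster 60.0% of the 853 RT1-Da UMIs came from 1 cell. Ctss, the protease that trims the invariant chain, ran the other way, at 1983 and 2187 CPM in the deep and shallow clusters, 534 in the dendritic and monocyte and 241 in the B-like cluster. Median class II UMIs per 10000 were 428 in dendritic and monocyte, 204 in B-like, 29.8 in deep and 28.6 in shallow macrophage-like cells.

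**Figure D3:**
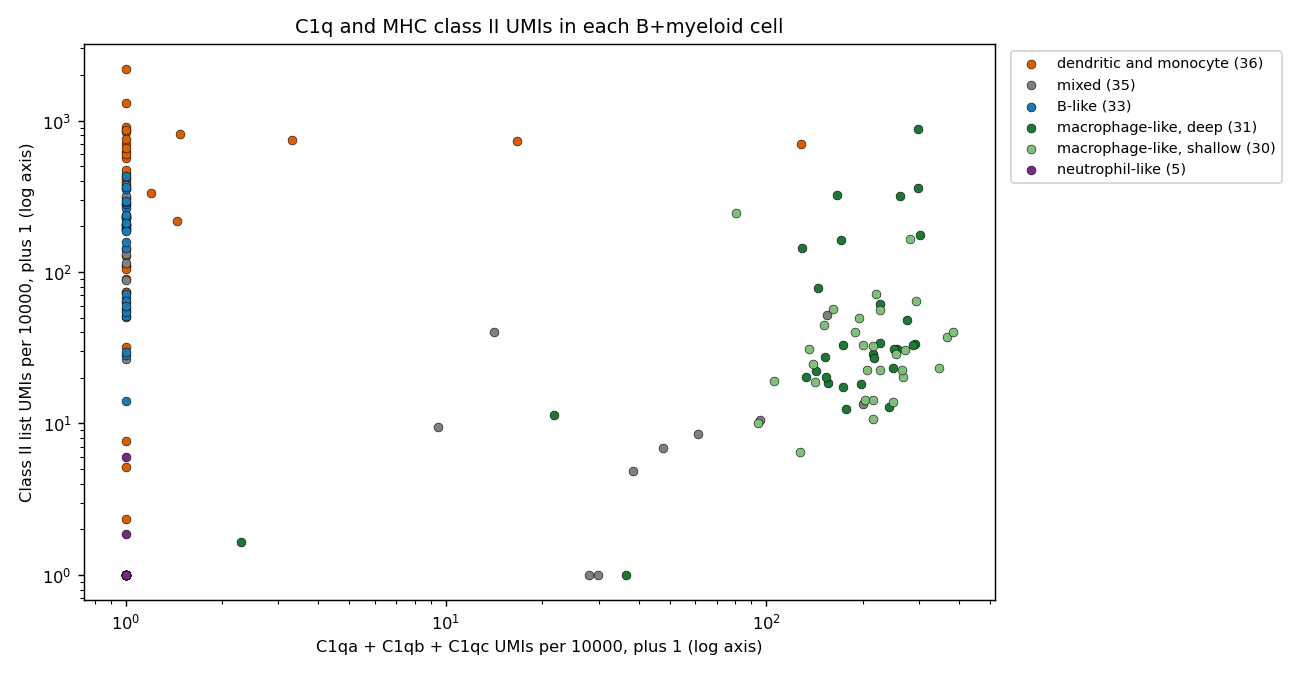
Each point is 1 of the 170 B+myeloid cells, with UMIs of C1qa, C1qb and C1qc per 10000 UMIs plus 1 (x axis, log scale) and UMIs of the class II list per 10000 plus 1 (y axis, log scale), coloured by cluster. The 33 B-like cells all lie at 0 C1q, the macrophage-like cells lie at the right, and a few deep macrophage-like cells reach the class II levels of the dendritic and monocyte cells.

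Class II genes are switched on together through the coactivator CIITA, which acts at paired promoter elements called the X and Y boxes, bound by RFX and NF-Y. Because all of the chains below were shared by the dendritic and B-like members, the 100 bases from 125 to 26 bases before their RefSeq gene start (assembly GRCr8, which is not the build of the counts, mRatBN7.2) are shown, with GCAAC, a core of the X box, and TGATTGG, a core of the Y box, in capitals. They are RT1-Da at chr20:4515290-4515389 (plus strand), RT1-Db1 at chr20:4560188-4560287 (minus), RT1-Ba at chr20:4576932-4577031 (plus) and RT1-Bb at chr20:4604144-4604243 (minus).
RT1-Da: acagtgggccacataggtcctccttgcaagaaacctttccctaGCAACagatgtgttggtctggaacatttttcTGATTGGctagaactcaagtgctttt
RT1-Db1: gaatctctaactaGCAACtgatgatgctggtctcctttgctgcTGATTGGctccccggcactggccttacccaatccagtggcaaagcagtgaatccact
RT1-Ba: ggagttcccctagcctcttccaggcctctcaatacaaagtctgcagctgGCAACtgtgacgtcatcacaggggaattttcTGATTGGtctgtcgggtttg
RT1-Bb: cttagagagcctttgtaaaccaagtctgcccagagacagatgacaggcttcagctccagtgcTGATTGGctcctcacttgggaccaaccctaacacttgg

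The pair began 31 bases apart in RT1-Da and RT1-Ba and 30 bases apart in RT1-Db1, and the letters GCAAC are not in the RT1-Bb window. Of the 11 class II genes, 9 were matched in the RefSeq promoter table, which runs from 250 bases before to 50 after the start. Searched on both strands, 7 of the 9 held TGATTGG, 7 held GCAAC, and 5 held GCAAC followed by TGATTGG at 20 to 40 bases. Over all 33469 promoters the shares were 7.06% for TGATTGG, 35.1% for GCAAC and 0.176% for the pair. A match describes letters in a window and shows no binding.

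The dendritic and monocyte cluster parted into lineages when the same tree was read at 12 groups, a reading added after the 6 clusters were seen. One group of 7 cells was plasmacytoid dendritic-like, and most of the other 29 held conventional dendritic or monocyte genes. By marker list, 11 of the 29 went to monocytes, 11 to type 1 and 3 to type 2 dendritic cells. Of the rest, 2 went to activated and 1 to plasmacytoid dendritic cells and 1 to the T lineage. One cell with 22591 UMIs held 0 monocyte and 1 type 1 dendritic list UMIs, and another held 132 T-lineage and 186 neutrophil list UMIs. All 7 plasmacytoid-like cells had Siglech, with 597 of the members' 628 UMIs, 3369 CPM (3104 to 3650). Tcf4, the factor that sets this lineage, was at 3510 CPM against 260 in the 29 others, Irf8 at 1749 against 404, Runx2 at 801 against 91.5, and Irf7, which drives interferon genes, at 276 against 46.4. The B cell adaptor Blnk was at 982 CPM against 23.9 and Jchain at 2703 against 5.63, so both genes were shared with the B lineage in these cells. Kdr, the VEGF receptor best known from endothelium, had 110 of the members' 125 UMIs in 6 of the 7 cells.

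Ptcra, the pre-T cell receptor chain of early thymocytes and a known gene of plasmacytoid cells, had 64 UMIs in 6 of the 7 plasmacytoid-like cells, 57.8% of them in 1 cell. The T-lineage list of 10 genes (Ptcra, Rag1, Cd8a, Cd8b, Lat, Lck, Cd247 and the CD3 genes Cd3d, Cd3e and Cd3g) had UMIs in all 7, between 5 and 116 per cell, at 2082 CPM. Cell-cycle UMIs of this group came from 1 cell, with 193 of 199 UMIs of the proliferation list.

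Among the other 29 cells, 10 had an Xcr1 UMI and 19 had none. XCR1 is the chemokine receptor of type 1 conventional dendritic cells, which present antigen taken from other cells. Split this way, which is a description, the 10 cells held 92 of 94 Clec9a UMIs, Irf8 at 950 CPM (839 to 1073) and Wdfy4, a gene needed for cross-presentation, at 1161 CPM (1037 to 1295). The secreted protease inhibitor Slpi was at 16063 CPM in these 10 cells, with UMIs in all of them. Their counts of Sirpa, Fn1 and Vcan were 0.

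The 19 cells without Xcr1 UMIs had Sirpa, a marker of type 2 dendritic cells and monocytes, in 16 cells with 83 UMIs, and Il1b in 16 cells with 220 UMIs. Lyz2, the lysozyme of monocytes and macrophages, had 2804 UMIs, 1245 of them in 1 cell. Ccr2, the receptor that draws monocytes out of marrow, had 74 UMIs in 7 cells, and Fn1 had 101 UMIs in 2 cells. Irf8 was at 57.5 CPM (37.2 to 84.8). Cd74 was high in both sets, at 18747 CPM with and 11641 CPM without Xcr1. Il1b and Lyz2 were also in both sets, with UMIs in 9 and 10 of the 10 cells with Xcr1. Il1b stood at 203 CPM with and 506 CPM without Xcr1, and Lyz2 at 852 and 6445 CPM. One of the 29 cells held all 226 Prg2 UMIs of the group and all 93 Cma1 UMIs, genes of eosinophils and mast cells.

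The B-like cluster held 23 B-like and 10 plasma-like cells. The cluster led in 10 of the 17 measured genes of the B list by 3-fold or more over the next cluster, beside 1.58% of 7224 genes compared, a contrast the clustering itself used. The 23 B-like cells all had Pax5, with 207 UMIs at 652 CPM (566 to 747), Cd79a at 1459 CPM and Fcmr, the receptor for IgM, at 536 CPM. Ms4a1, the gene of CD20, was seen in 22 of them, Bank1 in 20, Ccr6 in 20 and Cr2, the complement receptor that lowers the threshold of B cell activation, in 19. Fcer2 was seen in 7, and Aire had 4 UMIs in 1 cell.

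The 10 plasma-like cells held the B list at 2657 CPM (2388 to 2947) against 7123 (6832 to 7422) in the B-like cells, and the plasma list at 75271 against 866. Cd79a was kept in 9 of the 10, at 1015 CPM (851 to 1200.5) against 1459, and 5 of the 10 were assigned to the B list. One of the 10 had only 4 plasma list UMIs and 22.5% mitochondrial UMIs. Igha had 13383 of the members' 13508 UMIs there, in 8 of 10 cells, and 1 cell gave 51.6% of them. Jchain had 9289 UMIs in 9 cells, Mzb1, a chaperone of antibody assembly, 502, and Xbp1, the factor of the secretory stress response, 127. Prdm1, the factor that turns B cells into plasma cells, had 51 UMIs in 9 cells against 0 in the 23 B-like cells, and Tnfrsf17, the survival receptor BCMA, 53 against 0. Pax5 had 2 UMIs, and Cr2 and Cd40 had none. Cd74 was at 3664 CPM against 7916 in the B-like cells, and RT1-Da at 246 CPM (169.5 to 346) against 4417 (4188 to 4654). Il10 had 140 UMIs, 99.3% of them in 1 cell.

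The mixed cluster of 35 cells parted into 4 groups. A group of 12 cells was led by collagen and matrix genes, and in none of them did Ptprc, the gene of CD45, exceed 4 UMIs. In that group 4 cells held 358 to 928 UMIs of the fibroblast list, 3 held 22 to 27 of the endothelial list and 3 held 10 to 93 of the epithelial list, while 2 held fewer than 10 of each. Il33, an alarmin of stromal cells, had 169 of the members' 171 UMIs in this group and Ackr4, a chemokine scavenger, 53 of 54, of which 48 were in 1 cell. Col3a1 had 974 UMIs in 4 of the 12 cells.

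By marker list, 7 of a group of 10 cells in the mixed cluster went to activated dendritic cells, which have matured and carry CCR7. The B, macrophage and monocyte lists took 1 cell each. Aire, a gene of medullary epithelium, had 2 UMIs in the group, and Kdr had 7. The activated dendritic list was at 5763 CPM, with a UMI for 14 of its 16 genes and with Lamp3 and Cd200 at 0. Fscn1, which bundles actin in mature dendritic cells, had 93 UMIs in 6 cells, and Ccl22 and Ccl17, the ligands of CCR4, had 56 UMIs in 4 cells and 52 in 5. Tnfrsf11a, the gene of RANK, had 25 UMIs in 4 cells and Cd40 had 27 in 4. Single cells weighed heavily, with 63.4% of Fscn1 and 66.1% of Ccl22 UMIs from 1 cell, and the median depth was 2112.5 UMIs. Ptprc had a UMI in 30% of the 10 cells. Its share was 100% in the 7 plasmacytoid-like cells and 93.1% in the 29 other dendritic and monocyte cells. With cells thinned to equal depth, Ptprc was seen in 2 of 8 cells of this group, or 25%. The thinned shares were 57.1% and 55.2% in those other sets, and 20% in the plasma-like cells. Whether the 10 cells were blood-derived was not tested.

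The other 13 mixed cells were 6 with T-lineage genes and 7 shallow cells. The 6 held the T-lineage list at 7426 CPM, against 12656 in DP cells, with Cd3g and Cd8b each in 5 of 6 cells. Genes of other lineages were in the same cells: 4 held C1q UMIs (19, 68, 10 and 2) and the other 2 held 86 and 35 class II UMIs. The 7 had a median of 799 UMIs and 10.9% mitochondrial UMIs and were left unnamed. In the list assignment, all 7 went to the macrophage list.

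UMIs of T-lineage genes were present in most members. At least 1 was found in 115 members and 3 or more in 64, and the list summed to 679 CPM (646 to 712) against 12656 CPM in DP cells. By cluster the list stood at 1277 CPM in the mixed, 941 in the dendritic and monocyte, 391 in the deep and 354 in the shallow macrophage-like, 332 in the B-like and 71.1 in the neutrophil-like cells. Without the cells assigned to the T-lineage list the members stood at 473 CPM. The source of these UMIs was not tested.

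Markers of further lineages were sparse. The mast cell and basophil list had 140 UMIs in members, 85.7% of them in 1 cell, and the eosinophil list 276 UMIs, 82.6% in 1 cell. The list for natural killer and innate lymphoid cells had 96 UMIs over 38 members. The erythroid list had 46 UMIs. The interferon response list was at 498 CPM (470 to 527) in members and 73.2 in DP cells. The platelet list had 731 UMIs, of which 718 were Pf4 of the macrophage-like and the dendritic and monocyte cells.

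The first comparison with the stromal library asked how the 33 B-like members (451451 UMIs) relate to the 179 stromal cells labelled B cell (2856120 UMIs). Both held Cd79a, at 1327 CPM (1223 to 1437) and 615 CPM (586 to 644), and both held Pax5, at 463 and 253 CPM, with folds of 2.16 and 1.83. They differed in stage genes: the members were higher for MHC class II, mature B cell and antibody genes, and the stromal cells for precursor and cell-cycle genes. A gene was called at 3-fold or more with at least 20 UMIs in the higher group, after counts under 3 UMIs were set to 3. By that rule 418 of 10848 genes, 3.85%, were higher in the members and 2185, 20.1%, were lower.

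All 11 class II genes were called higher in the B-like members. Cd74 had 3004 UMIs at 6654 CPM in the members and 1046 UMIs at 366 CPM in the stromal cells, an 18.2-fold difference (16.9 to 19.5). RT1-Da was 16.4-fold higher (14.8 to 18.1), RT1-Db1 15.1-fold (13.7 to 16.5) and Ciita, the class II coactivator, 30.1-fold (13.8 to 74.6). The median of the list on the log2 scale was 3.94, beside -0.59 over all genes compared (-0.36 with totals that leave out mitochondrial, ribosomal and haemoglobin genes). With cells thinned to 1000 UMIs, Cd74 was seen in 97.0% of members and 12.8% of stromal cells.

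Of 17 B list genes compared, 6 were called higher in the members and 1 lower, with a median log2 ratio of 1.11. The members came from the cluster named by this list, and the stromal cells kept the authors' label. This count therefore follows in part from that choice. Ms4a1 had 143 UMIs in 29 members and 9 in 4 of 179 stromal cells, a 101-fold difference (51.5 to 224). Cr2 was 53.1-fold (32.5 to 92.0) and Bank1 50.0-fold (33.9 to 76.3) higher. Fcer2 and Cd22 were 19.9-fold and 5.16-fold higher. Ebf1, a factor that opens the B lineage and is also active in stroma, was 5.92-fold lower (5.23 to 6.73).

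Of the 9 genes of the TNF family list compared, 4 were higher and 2, Ltbr and Tnfrsf1a, lower, with a median log2 ratio of -0.34. Ccr6, a chemokine receptor, had 90 UMIs in members and 1 in stromal cells. Cxcr5, the receptor for follicles, was 60.1-fold higher (21.6 to 232), Tnfrsf13b and Tnfrsf13c, receptors for BAFF, were 17.7-fold and 8.00-fold higher, and Ltb, a lymphotoxin chain, was 23.0-fold higher (17.1 to 31.4). Of the 6 costimulation genes compared, 4 were higher, among them Cd40 at 13.4-fold (8.12 to 22.8) and Cd86 with 20 against 3 UMIs. Of the 16 B cell stage genes compared 7 were higher and 4 lower, and of the 16 chemokine genes 4 were higher and 8 lower. Among the 10 genes with the highest ratio were Igha, Fcrl5, Ccr6, Slamf1, Lax1, Ms4a4c, Ms4a1, Iglc1 and Pacsin1.

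Antibody genes rested on the plasma-like cells. Igha was at 29881 CPM in the B-like members and 34.0 CPM in the stromal cells. Of the 8 plasma list genes, which do not include Igha, 6 were called higher, Jchain, Mzb1 and Xbp1 among them. Without the 10 plasma-like cells, the log2 ratio of Igha was 3.31 in place of 9.78. In that setting Jchain (log2 ratio 0.67) and Mzb1 (0.56) were no longer called, and Xbp1 turned to -2.09 from 2.82.

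Cell-cycle and precursor genes stood on the stromal side. All 10 proliferation genes were called lower in the members, with a median log2 ratio of -4.91. Mki67 had 11 UMIs in members and 2486 in stromal cells, a 35.7-fold difference (19.9 to 71.7), and Top2a, which untangles replicated DNA, had 4 and 2534. Igll1, a chain of the surrogate light chain of precursor B cells, had 0 and 1076 UMIs, at least 56.7-fold lower in the members. Cd24 was at least 91.3-fold lower (0 against 1733 UMIs), Cd34 at least 24.3-fold (0 against 461) and Il7r, the receptor precursor B cells need, at least 12.2-fold (0 against 232). Of the 179 stromal cells, 145 held 3 or more UMIs of the fibroblast or epithelial list. Whether the UMIs of Cd24, Cd34 and Il7r came from precursor B cells was not tested. Thinned to 1000 UMIs per cell, Mki67 was seen in 3.03% of members and 43.6% of stromal B cells.

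Labels other than fibroblasts held fibroblast transcripts in the stromal library. The fibroblast list stood at 13640 CPM in Thymocyte, 4268 in capillary endothelial, 3072 in Myeloid and 336 in proliferating medullary epithelial cells. The stromal B label also carried such transcripts. The fibroblast list was at 8773 CPM in 173 of its 179 cells, against 0 UMIs in the 33 B-like members, and 7 of the 10 genes with the lowest ratio were Col3a1, Dcn, Sparc, Col1a1, Col1a2, C7 and Igfbp7, with Ccl19, Ccl21 and Ifitm3 the others. Of the 179 cells, 145 held 3 or more UMIs of the fibroblast or epithelial list. Against the 34 others, 419 genes were called higher and 707 lower in the members, so the higher share of calls was 37.2% in place of 16.1%. Against those 34 cells Cd74 (log2 ratio 4.21), Ms4a1 (5.10), Mki67 (-4.53), Top2a (-5.86) and Igll1 (-6.56) were still called. Of the 116 list genes called against all 179 cells, 66 were still called and 1 was weaker. The other 49 had too few UMIs to be compared, so this setting cannot speak for them. When cells of both libraries were assigned by marker list, 108 of the 179 were B, and the same 5 genes were called.

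**Figure D4:**
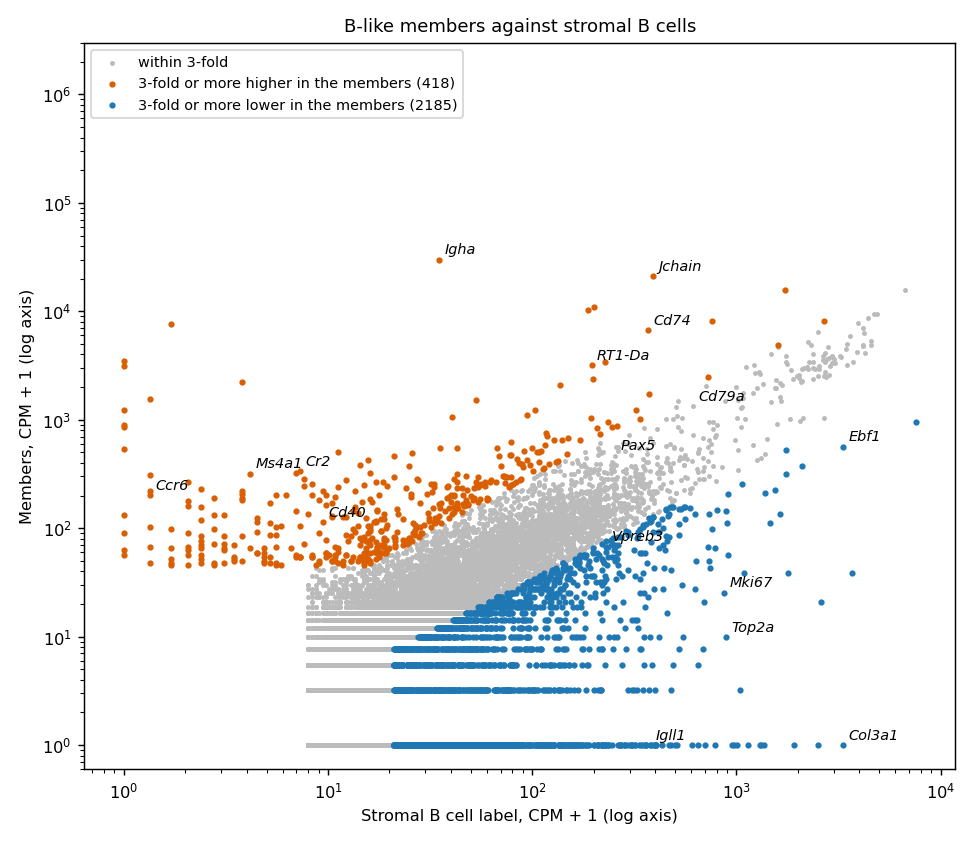
Each point is 1 of 10848 genes, with its level plus 1 in the 179 stromal cells labelled B cell (x axis) and in the 33 B-like members (y axis), both in CPM on log scales; colours mark calls at 3-fold or more. Igha, Jchain, Cd74, RT1-Da, Ms4a1 and Cr2 lie above the diagonal band with 418 higher genes, Cd79a and Pax5 lie within it, and Mki67, Top2a, Igll1, Ebf1 and Col3a1 lie among the 2185 lower ones.

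The second comparison set the 97 macrophage-like, dendritic and monocyte members (1622698 UMIs) beside the 505 stromal cells labelled Myeloid (6036710 UMIs). The mix of lineages differed. By marker list, 426 of the 505 stromal cells, 84.4% (80.9 to 87.4), went to the neutrophil list, 78 to the monocyte list and none to the macrophage list. The 97 members leave out the 5 neutrophil-like ones, which are compared separately. The members were higher for macrophage, dendritic and class II genes and the stromal cells for neutrophil granule genes. Of 11749 genes compared, 1396, 11.9%, were called higher in the members and 1280, 10.9%, lower. By the mean of the cells' CPM, 1384 were higher and 1968 lower, and with cells thinned to 1000 UMIs 226 and 380, so the higher share of calls was 41.3% and 37.3% in place of 52.2%.

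Of 18 macrophage list genes compared, 17 were called higher in the members, with a median log2 ratio of 5.50 beside 0.16 over all genes. These members came from clusters named by the macrophage, dendritic and monocyte lists, and the stromal cells kept the authors' label. This count therefore follows in part from that choice. C1qa had 6244 UMIs in members and 0 in 6036710 stromal UMIs, at least 7743-fold higher. Cd163 had 784 UMIs and 1, Mmp12, a macrophage elastase, 984 and 0, and Dnase1l3, which degrades DNA of dead cells, 1135 and 1. Adgre1, the gene of F4/80, had 234 and 2. Mertk was 50.3-fold higher (31.6 to 85.0), Axl 15.9-fold (12.9 to 19.7) and Vcam1 24.2-fold (19.7 to 30.1). Lyz2 alone was not higher, at 2011 CPM in members and 4808 in stromal cells, within the 3-fold limit.

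Class II and dendritic genes were also on the members' side. All 11 class II genes were called higher, with a median log2 ratio of 7.08, Cd74 at 146-fold (131 to 165) and RT1-Da at 192-fold (165 to 224). Of the type 1 dendritic list 10 of 11 genes were higher, with Clec9a at 94 UMIs against 0 and Xcr1 19.4-fold higher (12.2 to 32.2). Of the plasmacytoid list 10 of 12 were higher, with Siglech at 628 UMIs against 0, at least 779-fold. The counts for the dendritic lists likewise follow in part from naming the members' clusters by such lists. All 6 costimulation genes compared were higher, among them Cd86 with 424 UMIs against 4.

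Within the efferocytosis list 13 of 17 genes were higher and Pros1 was lower. With the 36 dendritic and monocyte members alone, 3 of the 13 (Ctsd, Dnase2 and Itgb5) reversed. Lgmn was 236-fold higher (152 to 388) and Abca1 60.9-fold (48.6 to 77.2). In the same setting the calls of Abca1 (log2 ratio 0.13), Axl (1.07), Mrc1 (0.84) and Vcam1 (1.18) were lost, and that of Lgmn (2.35) too, since it had under 20 UMIs there. Complement genes split, with 6 of 10 higher, the C1q chains among them, and 3 lower. Cfb, of the alternative pathway, had 2 UMIs in members and 249 in stromal cells, C5ar1 was 6.64-fold lower (4.58 to 9.98) and C3 3.85-fold lower (2.95 to 5.10).

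Neutrophil granule genes were absent or low in these 97 members. Mpo had 0 UMIs against 11295, Elane 0 against 16462 and Ctsg 0 against 32315, and the defensins Defa5 and Np4 had 0 against 114365 and 137891. Of 13 neutrophil list genes 9 were called lower and 1, Il1r2, higher. S100a8 was 92.8-fold lower (86.8 to 99.4). The neutrophil-like members, left out here by their cluster, held 5634 of the 6497 S100a8 UMIs of all B+myeloid cells. The list count and the S100a8 gap therefore follow in part from that choice. Mpo, Ctsg, Defa5 and Np4 had 0 UMIs in the left-out cells as well, and Elane had 1. One macrophage-like cell carried 2553 of the 2818 neutrophil list UMIs of the 97 members, and the next had 186. With macrophage-like members alone, the log2 ratio of Il1r2 turned to -1.10 from 2.03.

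T-lineage and fibroblast genes moved with the library as well. Of 10 T-lineage genes, 9 were higher in the 97 members, where the list stood at 690 CPM against 114 CPM in stromal Myeloid cells, and all 7 fibroblast genes were lower, at 1 UMI against 3072 CPM. Of 10 proliferation genes 5 were lower and none higher. Without members that hold 3 or more T-lineage UMIs, Cd3g, one of the 9, reversed, and 899 genes were higher and 908 lower. Cd3g is on the list that this filter counts, and stromal cells were not filtered, so its fall follows from the filter. Lineage, digestion, sort and library cannot be told apart in these counts.

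**Figure D5:**
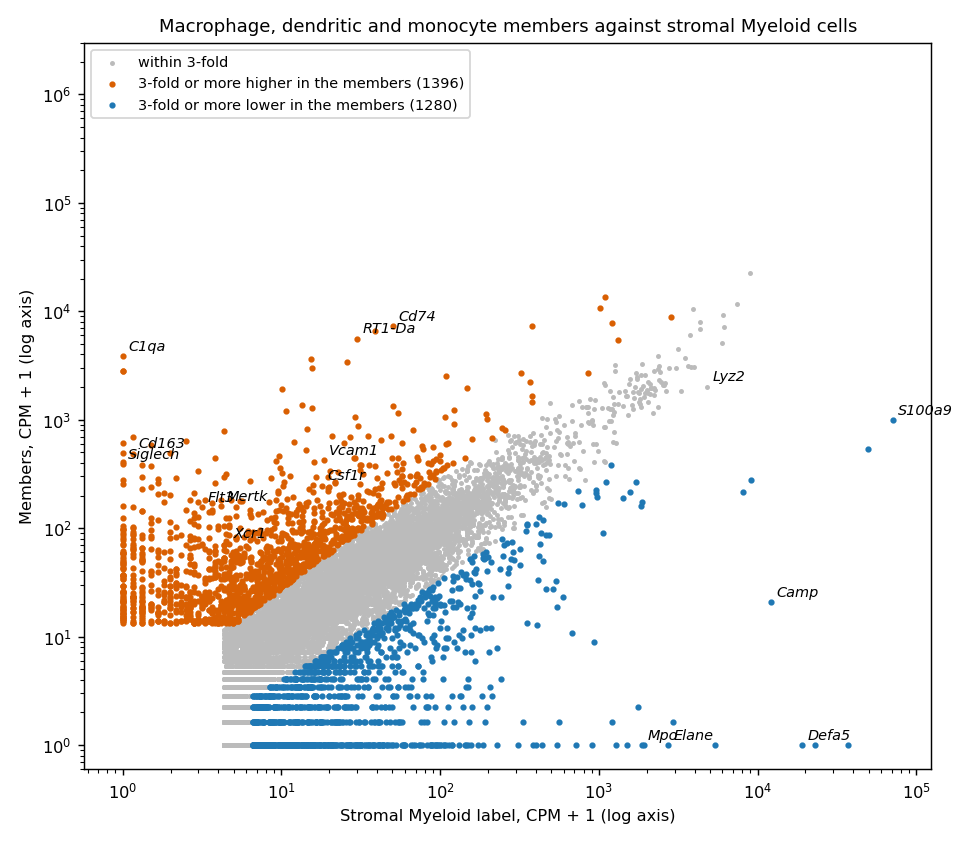
Each point is 1 of 11749 genes, with its level plus 1 in the 505 stromal cells labelled Myeloid (x axis) and in the 97 macrophage-like, dendritic and monocyte members (y axis), both in CPM on log scales; colours mark calls at 3-fold or more. C1qa, Cd163 and Siglech lie at the left edge with no or 1 stromal UMI, and Mpo, Elane and Defa5 lie at the bottom with no UMI in the members.

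The 5 neutrophil-like members were set beside the stromal Myeloid cells, most of which went to the neutrophil list, and they differed from them in granule genes. S100a8 was at 133548 CPM (130084 to 137082) in the 5 cells, between 700.0 and 1589 UMIs each, and at 49371 CPM in the stromal cells. S100a9 was at 227866 and 71122 CPM. Both genes, which code for the cytosolic calprotectin pair, were abundant in either library, with ratios of 2.71 (2.63 to 2.78) and 3.20 (3.14 to 3.27).

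Genes of late granules and of circulating neutrophils were higher in the 5 members. Mmp8 had 256 UMIs, 22 to 84 in each cell, at 6068 CPM (5348 to 6859) against 71.9 in stromal cells, where 4.16% of cells had a UMI. Mmp9 was at 948 CPM (677 to 1291) against 15.6, Il1r2, a decoy receptor of interleukin 1, at 782 (538 to 1099) against 8.78, and Retnlg, a resistin-like gene, at 6685 against 49.2. The chemokine receptor Cxcr2 had 14 UMIs in 4 of the 5 cells, 332 CPM (181 to 557) against 20.5.

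Genes of early granules were on the stromal side. Mpo, Prtn3, Ctsg, Fcnb, Ms4a3, Defa5 and Np4 had 0 UMIs in the 5 members and Elane had 1, where 3 UMIs equal 71.1 CPM. In stromal cells Mpo was at 1871 CPM in 61.6% of cells, Ctsg at 5353 and Np4 at 22842, so Np4 was at least 321-fold and Mpo at least 26.3-fold lower in the members. Ngp, of the secondary granules, had 2 UMIs against 2935 CPM, and Camp was at 3342 CPM against 12208. Not all granule genes ran this way: Olfm4 was 2.57-fold (2.187 to 3.003), Pglyrp1 6.05-fold (5.11 to 7.12) and Hp 2.81-fold (2.14 to 3.62) higher in the members. With 5 cells from 1 library, these values describe those cells.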

How the data were processed

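Droplet libraries of rat thymic stroma and thymocytes (1 sample each) were deposited as whole UMI counts per gene and barcode, with the authors' cell labels, their UMI counts per cell and the percent of mitochondrial UMIs that the authors computed. Per the submitters' processing notes, Cell Ranger 8.0.0, Seurat 5.3.0 and mRatBN7.2 were used. The members and the gene lists were chosen with earlier results of these data known.

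UMIs were summed over cells of a group and given per 1000000. Intervals (95%) are exact Poisson for levels, Clopper-Pearson for shares and conditional exact for ratios, and cover counting error only. A gene was compared with 20 UMIs in either group. For clustering, counts per 10000 of genes in 5 or more cells were log-transformed. A cluster took the name of the marker list family to which most of its cells were assigned. Genes named were list members and the 10 with the highest or lowest ratio. With 1 library per group no test was run. The counting rule was tested on simulated data. Computation used pandas 2.3.3, NumPy 2.4.6 and SciPy 1.17.1 under Python 3.11.15, and figures matplotlib 3.10.9. A few genes under these rules are not reported here.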

Additional observations from a re-analysis of the deposited data

Results flagged for a closer look

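C1qa, C1qb and C1qc were also found outside the annotated cells. Of the 28 barcodes of the thymocyte library without a label, 3 held 7 UMIs of these genes, and 1 of them held 5. These barcodes enter no comparison, and none of the 8376 annotated cells outside the B+myeloid label held 3 or more such UMIs.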

How the results depend on the processing

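No paired analysis was possible because a library stands alone in its group. Settings for the tissue section were not run, since none of its 31 bin labels names B or myeloid cells. The share of members was 1.99%, and 2.43% among cells with at most 5% mitochondrial UMIs or 1.24% without members that hold 3 or more T-lineage UMIs. The macrophage-like share stayed within its interval (32.8% to 41.2%). The B-like share of 19.4% became 12% with at most 5% mitochondrial UMIs, 13.7% below the 99th percentile of UMIs, and 13.5% with 8 clusters, 500 variable genes or 12 groups. The dendritic and monocyte share of 21.2% became 37.6% (mitochondrial limit), 40.6% (without T-lineage UMIs), 28.2% (8 clusters, and 500 variable genes), 32.4% (assignment by list) and 34.1% (12 groups). Marker genes led by 1 cluster numbered 45, and 24 with the mitochondrial limit or 12 with cells thinned to 1000 UMIs. The clusters were built from the same counts. Over all 7224 genes compared, a cluster led in between 0.0138% and 5.02%. The T-lineage level of 679 CPM was 891 over totals without mitochondrial, ribosomal and haemoglobin genes and 473 without cells assigned to that list.

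Against stromal B cells, 418 genes higher and 2185 lower became 46 and 180 with thinning, 675 and 3784 at 2-fold, and 247 and 1152 at 5-fold. A minimum of 50 UMIs gave 238 higher, and stromal B cells with under 3 fibroblast or epithelial UMIs gave 707 lower. With cells assigned by list, the log2 ratios of C7 (0.37) and Vcam1 (1.07) turned, and without the 10 plasma-like cells that of Xbp1 did (-2.09). Over the 116 list genes called there, 6 turned in the first setting and 1 in the second. Against stromal Myeloid cells, 1396 higher and 1280 lower became 226 and 380 with thinning, 2219 and 2144 at 2-fold, and 877 and 706 at 5-fold. Higher genes numbered 899 without T-lineage UMIs and 809 with dendritic and monocyte members alone. Lower genes numbered 1968 by the mean of the cells' CPM and 720 against stromal Myeloid cells with under 3 fibroblast or epithelial UMIs. Il1r2 turned (-1.10) with macrophage-like members alone. Over the 183 list genes called in that comparison, 10 turned in this setting (Cadm1, Cd200, Cd3g, Hba-a2, Il1r2, Itgae, Krt18, Krt8, Runx2 and Vcan), 7 with dendritic and monocyte members alone, 5 without T-lineage UMIs (Cd27, Cd3g, Krt18, Krt8 and Vcan) and 2 with assignment by list. The causes were not tested, other than that thinning leaves fewer UMIs to pass the minimum. The filter on T-lineage UMIs takes out members by a list that holds Cd3g itself.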
